A study of Mus musculus with 6 samples.

Results

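Transcript levels of 10 genes that store, move and release iron were followed in bulk RNA sequencing of mouse neutrophils. The genes were chosen by name (Fth1, Ftl1, Tfrc, Slc40a1, Slc11a1, Slc11a2, Hmox1, Ncoa4, Steap3 and Ireb2). All 10 had an entry in the table of 56884 genes. Neutrophils positive for CD101 and Ly6G, surface proteins of the mature stage, were sorted from bone marrow and kept outside the animal. In 3 libraries the culture held DKK1, or Dickkopf-1, a secreted protein that blocks Wnt receptors. The other 3, called control below, had none. Sorting and ex vivo culture were common to both groups. The labels give no strain, sex, age or genotype of the mice, no dose of DKK1 and no culture time. They also do not say whether each library is its own animal or culture, so every p-value refers to the scatter among these 6 libraries, and that scatter may be technical.

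Cells store iron inside ferritin, a shell built of heavy chains (encoded by Fth1), which oxidize iron, and light chains (Ftl1), which help to form the mineral core. Iron bound to transferrin enters through the transferrin receptor (Tfrc), is reduced in the endosome by ferrireductases such as Steap3 and crosses membranes through the transporters Slc11a2 (DMT1) and Slc11a1 (NRAMP1), the latter in the phagosomes of phagocytes. Heme oxygenase (Hmox1) frees iron from heme, Ncoa4 delivers ferritin for breakdown, and ferroportin (Slc40a1) exports iron. Iron regulatory proteins, among them Ireb2, bind hairpins called iron-responsive elements in mRNA when iron is scarce: in a 5′ untranslated region (UTR) they block translation, and in a 3′ UTR they protect the transcript. Macrophages that clear red cells are known for high ferritin, heme oxygenase and ferroportin, whereas neutrophils are known for secreted iron binders such as lactoferrin and lipocalin 2.

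The hairpins are shown here because they divide the 10 genes by where the regulatory letters lie. The genes were chosen by name for iron handling, so matches among them are a description and no independent result. GENCODE M21 transcripts (GRCm38, the assembly also called mm10) were searched on the transcript strand for a 6-base loop CAGTGN set between 5-base stems, with a C before the 5′ stem and at least 4 of 5 stem positions paired, G with T counted as a pair. Each line gives 30 bases, 5′ to 3′, in DNA letters, and capitals mark the loop.
Fth1 5′ UTR, chr19:9982732-9982761, plus strand: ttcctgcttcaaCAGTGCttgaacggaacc
Ftl1 5′ UTR, chr7:45459778-45459807, minus strand: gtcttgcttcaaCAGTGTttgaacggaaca
Slc40a1 5′ UTR, chr1:45925464-45925493, minus strand: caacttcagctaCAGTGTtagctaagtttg
Tfrc 3′ UTR, chr16:32631219-32631248, plus strand: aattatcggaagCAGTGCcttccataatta
Tfrc 3′ UTR, chr16:32631598-32631627, plus strand: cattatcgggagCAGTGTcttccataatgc
Tfrc 3′ UTR, chr16:32631663-32631692, plus strand: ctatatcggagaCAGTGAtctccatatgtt
Tfrc 3′ UTR, chr16:32631710-32631739, plus strand: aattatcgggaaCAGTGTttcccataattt
Slc11a2 3′ UTR, chr15:100395152-100395181, minus strand: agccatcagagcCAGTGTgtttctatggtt

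Of the 10 genes, 5 held a match and 5 (Slc11a1, Hmox1, Ncoa4, Steap3 and Ireb2) did not. Among 21376 protein-coding genes searched the same way, 4.91% held at least 1 match, 0.926% in a 5′ UTR and 4.00% in a 3′ UTR. Chromosome 18 and the mitochondrial genome, where none of the 10 genes lies, were left out of the search. The ferritin chains shared 26 of 30 letters of the window, and each of them shared 13 of 30 with Slc40a1. Tfrc held 4 matches, and 5 of all genes searched held 3 or more. Every printed site paired at 5 of 5 stem positions except that of Slc11a2, which paired at 4 and lay in some annotated transcripts of the gene but not in all. The counts sum all isoforms of a gene, so isoforms with and without this site cannot be told apart here. A match is a description of letters and not a measured site of binding.

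Between 5188116 (DKK1 library 2) and 9851961 (control library 3) reads were recovered per library. DKK1 library 2 stood apart from the other DKK1 libraries: the chi-square of recovered reads per degree of freedom was 13.6 and 12.5 against them, and between 2.19 and 2.99 for the other pairs within groups. The libraries labelled as mature neutrophils with DKK1 nearly lacked the sorting markers. Mean normalized counts of Cd101 were 5098 ± 178 in control and 3.53 ± 2.31 in DKK1 libraries (SD, n = 3), and those of Ly6g were 1337.5 ± 72.7 and 5.96 ± 1.30. Marker calls below use the test described in the next paragraph, which called 35.1% of all genes tested higher and 36.1% lower. With equal totals it called 7100 higher and 4745 lower of 16265. All 12 of 12 neutrophil markers were lower, with a summed level of 723059 to 748560 in control and 3187 to 3878 in DKK1 libraries. Of 16 macrophage markers 15 were tested, and 5 were higher and 7 lower (6 and 3 with libraries scaled to equal totals). Their sum went from 4887 to 5200 up to 15544 to 15634. C1qa, Cd163 and Timd4 were at 0 in each DKK1 library, and already low in the control group, at 60, 33 and 8 reads. Cd68, the largest part of the macrophage sum in DKK1 libraries, was at 902 ± 43.7 in control and 10121 ± 286 with DKK1 (SD, n = 3). Mean normalized counts of Adgre1 rose from 1106 to 2828. Those of Csf1r fell from 2754 to 2073, a call that was lost with equal totals. The 6 osteoclast markers summed to 14.8 to 32.4 and to 1719 to 2040, with 3 of 3 tested higher and Dcstamp and Ocstamp at 0 in every library. Erythroid markers summed to 1645 to 1785 in control and to 648, 1499 and 300 in DKK1 libraries 1 to 3. Of 10 tested, 0 were higher and 7 lower (4 lower with equal totals). Klf1 and Epor, with only 4 and 10 reads in the control group, were among those at 0 in the DKK1 group. Of 7 B cell markers 6 were lower (3 with equal totals), with sums of 1489 to 1608 in control and 42.6 to 116 with DKK1. Of 6 monocyte markers 2 were higher and 3 lower, with sums of 3344 to 3442 and 2431 to 3578. Different genes made up most of the monocyte sums. Mean normalized counts of Ly6c2 went from 2504 in control to 30.1 with DKK1, and those of Cd14 from 550 to 2645. Dendritic cell markers (3 higher and 2 lower of 7 tested) summed to 1757 to 1847 in control and 756 to 932 with DKK1. Those of eosinophils, basophils and mast cells (4 higher and 1 lower of 8) summed to 356 to 385 and 480 to 500.1, and both tested T and NK cell markers were lower. These shifts accompany every result below, and their part in the results was not tested. In bulk RNA, fewer cells of a type and less RNA per cell cannot be told apart.

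With DKK1, 6 of the 10 genes rose (Slc11a2, Tfrc, Hmox1, Slc11a1, Fth1 and Ftl1), 1 fell (Slc40a1) and 3 did not pass the test (Ncoa4, Ireb2 and Steap3). The test was limma on log2(normalized count + 1) over the 16265 genes that reached a normalized count of 1 in at least 3 of 6 libraries, with a Benjamini-Hochberg adjusted p under 0.05. All 10 genes passed that filter. Of all genes tested, 71.2% were called, 35.1% as higher and 36.1% as lower, so a call by itself was common. The median log2 change was 2.07 over the 10 genes and -0.03 over all genes tested. Values of the 2 groups did not overlap for 8 of the 10 genes, against 73.9% of all genes tested. The plot of the 10 genes by library shows these values.

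**Figure D1:**
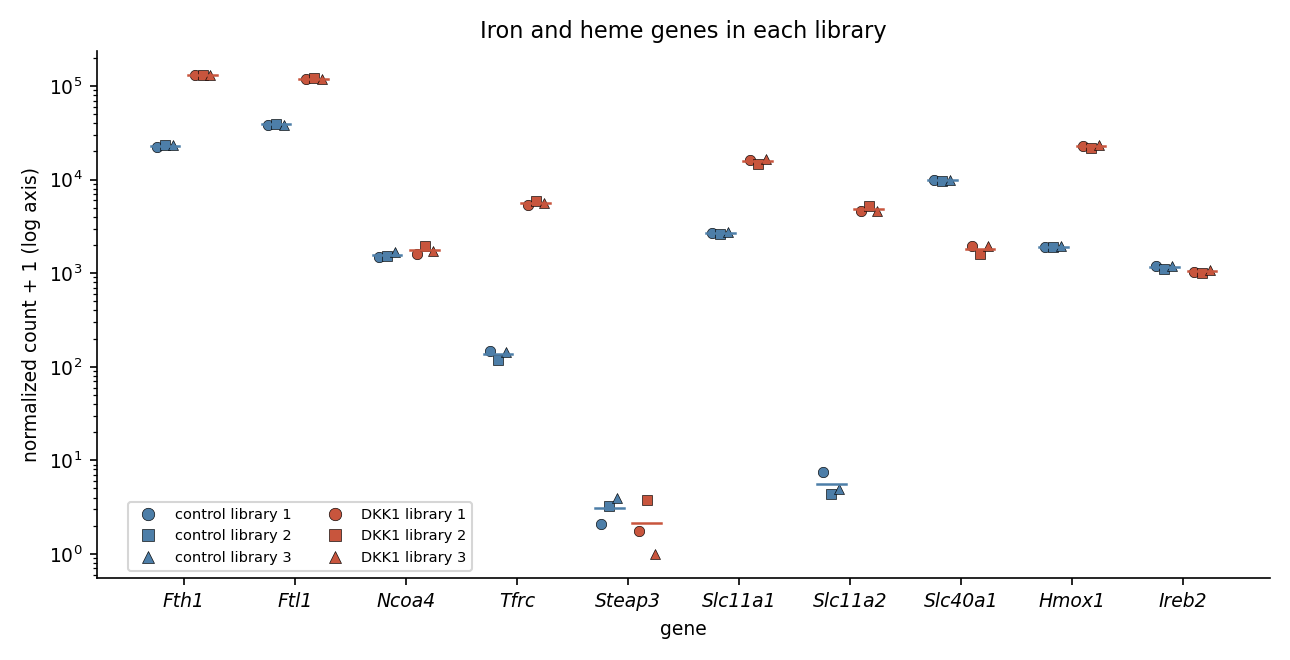
Normalized count plus 1 (log axis) of each of the 10 iron and heme genes in 6 libraries, 3 control and 3 DKK1, with 1 marker per library. The groups lie farthest apart for Slc11a2, Slc40a1 lies lower in DKK1 libraries, and the groups overlap for Ncoa4 and Steap3.

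By read share, the ferritin genes led all others in the DKK1 libraries. Fth1, the heavy chain (ENSMUSG00000024661.8, chr19:9980598-9985098, plus strand, 4 exons), had normalized counts of 22526, 23494 and 23407 in the control group and 132245, 131686 and 130664 in the DKK1 group, here and below in the order of library numbers. The DKK1 libraries were all high and lay close together, with no overlap. Fth1 rose 5.68-fold (log2 change 2.51 ± 0.03 SE, limma adjusted p = 6.26e-11).

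Ftl1, the light chain (ENSMUSG00000050708.17, chr7:45457944-45459884, minus strand, 4 exons), had 38443, 39654 and 38784 normalized counts in control and 120070, 122696 and 118244 in DKK1 libraries. Again the groups did not overlap, and the spread within each was small beside the gap between them. Ftl1 rose 3.09-fold (log2 change 1.63 ± 0.03 SE, limma adjusted p = 4.05e-10). Ranked by share of all counts, Fth1 went from rank 38 to rank 1 and Ftl1 from rank 17 to rank 2.

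Both chains together took 0.624%, 0.651% and 0.641% of all normalized counts in control libraries and 3.87%, 3.57% and 3.79% in DKK1 libraries. The mean share was 0.638% ± 0.0136 in control and 3.74% ± 0.155 with DKK1 (SD, n = 3), a 5.86-fold difference. Per kilobase of the principal transcript, the ratio of heavy to light chain was 0.611, 0.617 and 0.629 in control and 1.15, 1.12 and 1.15 in DKK1 libraries. The light chain transcript was thus the higher of the pair in every control library, and the heavy chain in every DKK1 library. An exact two-sided permutation test of this ratio gave p = 0.1, the smallest that 3 libraries against 3 allow.

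Some light chain reads may belong to other annotated genes. Gm10252, which overlaps Ftl1 exons on the opposite strand, had a mean of 8057 ± 383 in control and 18840 ± 594 normalized counts with DKK1 (SD, n = 3), and without stated strandedness its reads cannot be told apart from those of Ftl1. The copy Ftl1-ps2 (ENSMUSG00000062382.10) had 311 ± 27.6 and 1135 ± 41.1. With both counted as light chain, the ratio was 0.510 ± 0.0116 in control and 0.977 ± 0.00903 with DKK1, so that the heavy chain no longer exceeded the light chain.

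**Figure D2:**
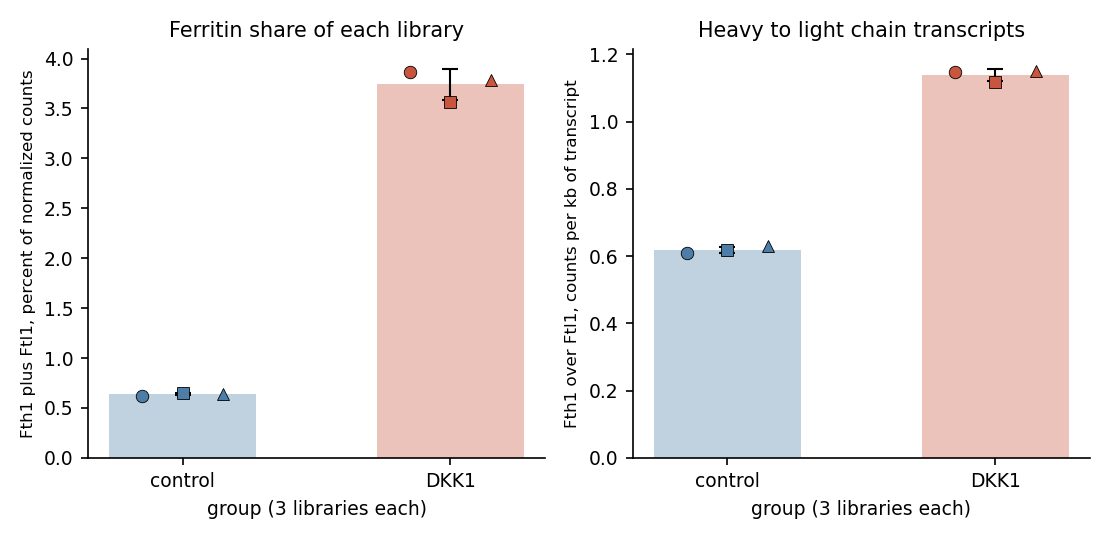
Ferritin transcripts in each library (points) with the group mean and SD, 3 control and 3 DKK1 libraries. The share of all normalized counts taken by Fth1 and Ftl1 lies between 0.624% and 0.651% in control and between 3.57% and 3.87% with DKK1, and the ratio of heavy to light chain per kilobase passes 1 in the DKK1 libraries.

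Ncoa4, the receptor that carries ferritin to the lysosome (ENSMUSG00000056234.16, chr14:32159865-32179855, plus strand, 10 exons), had 1495, 1544 and 1683 normalized counts in control and 1595, 1946 and 1733 in DKK1 libraries. The groups overlapped, DKK1 library 1 lying below control library 3. Its log2 change of 0.16 ± 0.09 SE missed the threshold (limma adjusted p = 0.129), and without DKK1 library 1 it passed at 0.22 (limma adjusted p = 0.0443).

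Among importers and membrane transporters, 3 rose. Tfrc, the receptor for iron-loaded transferrin (ENSMUSG00000022797.17, chr16:32608920-32632794, plus strand, 19 exons), had 146, 118 and 144 normalized counts in control and 5315, 5937 and 5573 in DKK1 libraries. Control values were low in each library and DKK1 values high in each. Tfrc rose 41.2-fold (log2 change 5.36 ± 0.10 SE, limma adjusted p = 2.16e-10), from 385 to 18279 recovered reads over the 3 libraries of a group.

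Slc11a2, which moves ferrous iron out of endosomes (ENSMUSG00000023030.17, chr15:100387898-100425072, minus strand, 17 exons), had 6.59, 3.35 and 3.94 normalized counts in control and 4667, 5206 and 4661 in DKK1 libraries. Only 13 reads were recovered in the control group, against 15760 with DKK1. It rose 1047-fold (log2 change 9.79 ± 0.20 SE, limma adjusted p = 4.37e-10), and 7 of the 16265 genes tested had a larger rise. An opposite-strand gene that overlaps it, Gm5475, had 52 reads in the DKK1 group and 0 in control.

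Slc11a1, the NRAMP1 transporter of phagosomes (ENSMUSG00000026177.12, chr1:74375195-74386062, plus strand, 15 exons), had 2659, 2629 and 2769 normalized counts in control and 16325, 14819 and 16554 in DKK1 libraries. It was high in every DKK1 library, the lowest of them being library 2. Slc11a1 rose 5.92-fold (log2 change 2.56 ± 0.06 SE, limma adjusted p = 6.69e-10). The related transporter Slc11a2 thus started near the detection limit, while Slc11a1 was already well expressed in control libraries.

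Steap3, a ferrireductase of the endosome (ENSMUSG00000026389.17, chr1:120190757-120272705, minus strand, 5 exons), was close to the detection limit throughout. It had 1.10, 2.23 and 2.96 normalized counts in control and 0.745, 2.75 and 0 in DKK1 libraries, which is 6 and 3 reads. The pooled ratio of control to DKK1 was 2.34, with an exact 95% counting interval of 0.499 to 14.4, and no difference was detectable at this depth (limma adjusted p = 0.341).

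Hmox1, the inducible heme oxygenase (ENSMUSG00000005413.9, chr8:75093621-75100589, plus strand, 5 exons), had 1924, 1920.3 and 1934 normalized counts in control and 22835, 21939 and 23717 in DKK1 libraries. The control values were nearly equal, and each DKK1 library lay far above them. Hmox1 rose 11.9-fold (log2 change 3.57 ± 0.05 SE, limma adjusted p = 6.54e-11) and went from rank 1048 to rank 12 by share of all counts.

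Slc40a1, the iron exporter ferroportin (ENSMUSG00000025993.11, chr1:45908068-45926523, minus strand, 8 exons), went the other way. It had 9902, 9635 and 9961 normalized counts in control and 1939, 1584 and 1933 in DKK1 libraries. The groups did not overlap, and DKK1 library 2 was the lowest. Slc40a1 was 5.41-fold lower with DKK1 (log2 change -2.44 ± 0.08 SE, limma adjusted p = 7.5e-09).

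Ireb2 is iron regulatory protein 2, which binds iron-responsive elements (ENSMUSG00000032293.9, chr9:54863789-54912530, plus strand, 22 exons). It had 1182, 1103 and 1184 normalized counts in control and 1041, 1007 and 1080.2 in DKK1 libraries. The DKK1 values were the lower ones without overlap, but the gap was small. The log2 change of -0.15 ± 0.07 SE missed the threshold (limma adjusted p = 0.0706), and its sign depended on the scaling: with libraries scaled to equal totals it was 0.38 (limma adjusted p = 0.00154).

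Genes with a hairpin match went both ways. Of the 3 genes with a 5′ UTR match, Fth1 and Ftl1 rose and Slc40a1 fell, and both genes with a 3′ UTR match, Tfrc and Slc11a2, rose. Of the 5 genes without a match, Slc11a1 and Hmox1 rose and the other 3 did not pass the test. These are counts over few genes, with no test.

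**Figure D3:**
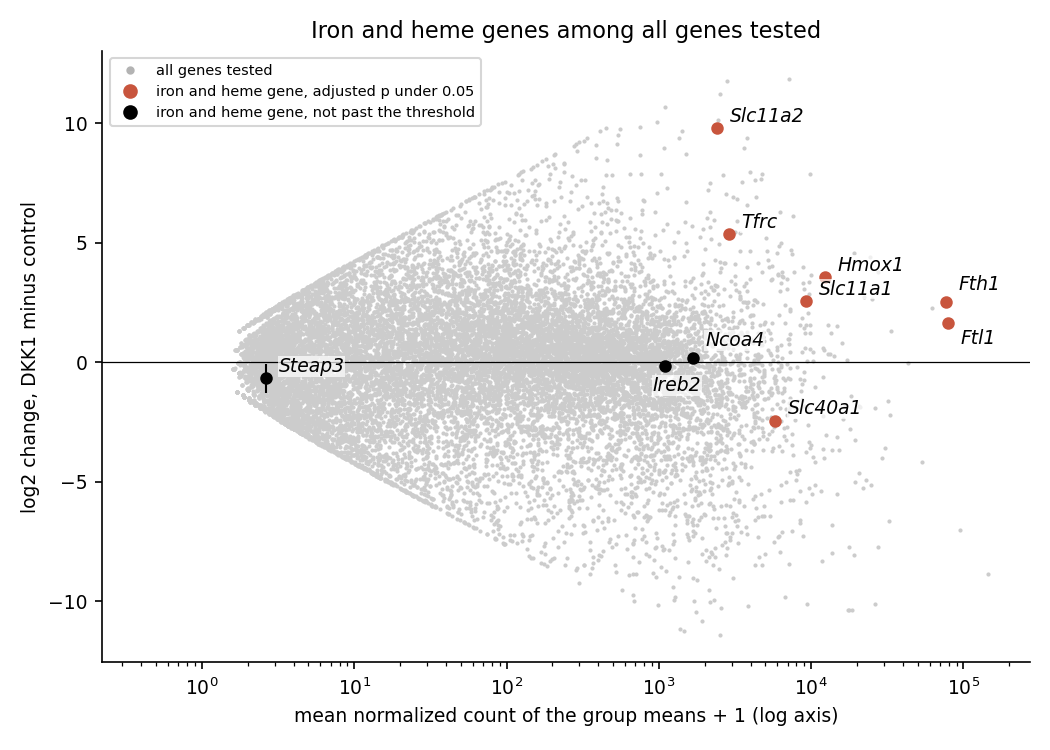
Log2 change (DKK1 minus control) against the mean normalized count of the group means plus 1 (log axis) for the 16265 genes tested, with the 10 iron and heme genes named. Slc11a2 lies near the upper edge, Fth1 and Ftl1 lie at the right among the most abundant transcripts, and Slc40a1 lies below 0.

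Levels of different genes were compared per kilobase of the principal transcript. In control the order of mean levels, in normalized counts per kilobase, was Ftl1 (40248 ± 645), Fth1 (24911 ± 576), Slc40a1 (2918 ± 51.6), Hmox1 (1228 ± 4.51), Slc11a1 (1160.06 ± 32.1), Ncoa4 (471 ± 29.2), Ireb2 (200.4 ± 8.04), Tfrc (27.8 ± 3.14), Slc11a2 (1.53 ± 0.570) and Steap3 (0.715 ± 0.319), each SD over 3 libraries. With DKK1 it was Fth1 (141584 ± 863), Ftl1 (124315 ± 2312), Hmox1 (14551 ± 567), Slc11a1 (6868 ± 407), Slc11a2 (1602 ± 103), Tfrc (1147 ± 63.9), Slc40a1 (539.7 ± 60.3), Ncoa4 (526 ± 53.0), Ireb2 (181 ± 6.36) and Steap3 (0.397 ± 0.485). The exporter was thus the third in control and stood beside Ncoa4 with DKK1, where the values of the pair overlapped. The importer Tfrc and the transporter Slc11a2 both stood above it.

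The sum of all normalized counts was 9729307 ± 39771 in control and 6738824 ± 336773 with DKK1 (SD, n = 3), so the choice of scaling bears on small changes. Scaling to equal totals moved the median log2 change of all genes by 0.47 and the share of calls that were higher from 49.3% to 59.9%. Under that scaling 8 of the 10 genes were higher and 1 lower, because Ncoa4 (0.69) and Ireb2 (0.38) passed the test as higher. Log2 changes there were 3.04 for Fth1, 2.16 for Ftl1, 5.89 for Tfrc, 10.27 for Slc11a2, 3.09 for Slc11a1, 4.10 for Hmox1 and -1.91 for Slc40a1. All 7 of these kept their direction and their side of the threshold under each of the 19 alternatives tried.

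**Figure D4:**
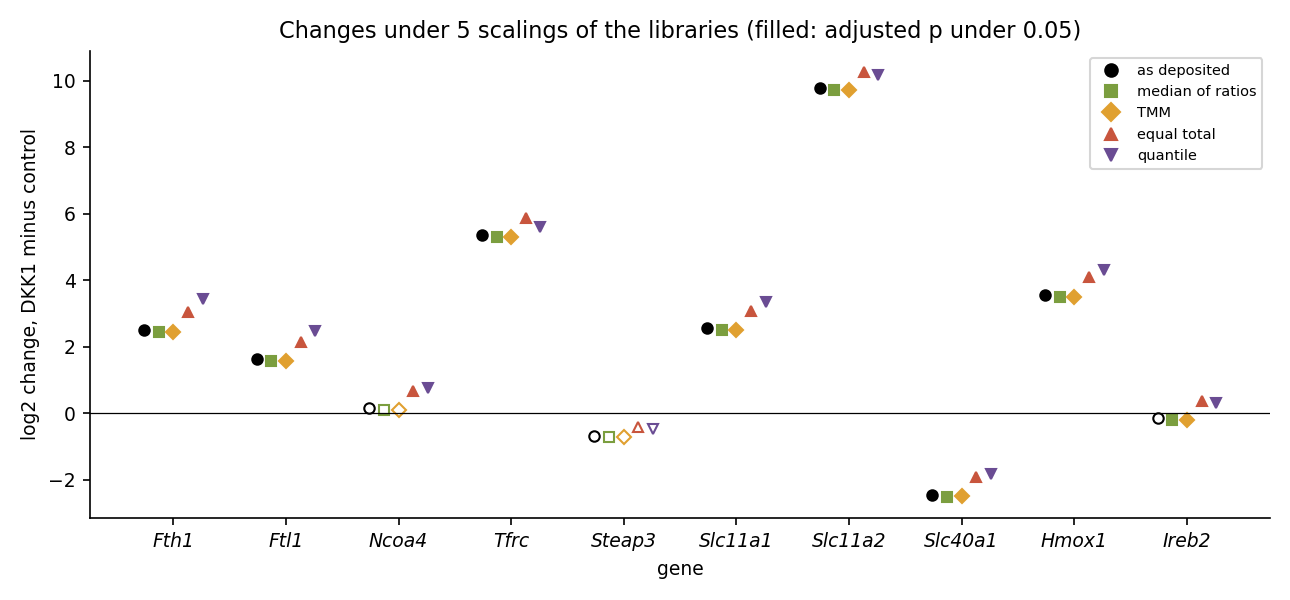
Log2 change (DKK1 minus control) of the 10 genes under 5 scalings of the libraries, filled where the adjusted p was under 0.05. The 7 called genes keep their sign, while Ireb2 lies at -0.15 as deposited and at 0.38 with equal totals.

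A wider list of 83 further genes of iron and heme handling gave the setting of these 10. Of 70 tested, 39 were higher, 18 lower and 13 did not pass, beside 35.1% and 36.1% called higher and lower among all genes tested. Their median log2 change was 0.90, and 1.43 with equal totals, where 48 were higher and 14 lower. The list, like the 10 genes, was chosen with earlier results of these data known, so its counts are a description.

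Both tested storage genes rose: the iron chaperone Pcbp1 2.47-fold (log2 change 1.30) and the related Pcbp2 1.38-fold. Of 9 tested uptake genes, 2 rose and 5 fell. Transferrin itself (Trf), the ligand of Tfrc, went from 1669, 1596 and 1680 normalized counts in control to 8.20, 11.0 and 5.72 in DKK1 libraries, 199-fold lower, while its receptor rose. Lactoferrin (Ltf), an iron binder of neutrophil granules, was 15.3-fold lower, and lipocalin 2 (Lcn2), which binds iron-carrying siderophores, 3.66-fold lower. Mcoln1, a lysosomal cation channel, rose 7.44-fold, and Exoc6, a vesicle tethering subunit, was 13.2-fold lower. The summed neutrophil markers were lower together with Ltf and Lcn2, and their part was not tested.

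Of 3 tested export and hepcidin genes 2 rose and 1 fell, all from few reads. Hamp, the hormone hepcidin that removes ferroportin from the membrane, had 2 reads in control and 50 with DKK1, a pooled ratio of 21.4 with an exact 95% counting interval of 5.62 to 182. DKK1 library 1 was the highest for Hamp, at 24.6 normalized counts against 8.24 and 8.98 in the others. Cp, the ferroxidase ceruloplasmin, was 2.41-fold higher (limma adjusted p = 0.025), a call that was lost without control library 2 (limma adjusted p = 0.0701) or without DKK1 library 3 (limma adjusted p = 0.0815). Hfe, an upstream regulator of hepcidin, had 13 reads in control and 1 with DKK1.

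Of 4 further heme breakdown genes 3 rose. Blvrb, a biliverdin reductase that acts after heme oxygenase, had 61.5, 43.6 and 29.6 normalized counts in control and 2291, 1622 and 2295 in DKK1 libraries, a 46.1-fold rise. Blvra, the other biliverdin reductase, rose 20.2-fold from uneven control values of 1.10, 16.8 and 8.87 normalized counts. The log2 change of Blvra was 4.65, against 3.77 without control library 1 and 5.31 without control library 2. Por, which passes electrons to heme oxygenase, rose 3.09-fold. The constitutive heme oxygenase Hmox2 was called lower with a log2 change of -0.22 (limma adjusted p = 0.0392), but with equal totals its change was 0.31. That call was also lost without control library 1 or 2 or without DKK1 library 1 or 3 (limma adjusted p from 0.0803 to 0.162). Hmox1 and both biliverdin reductases thus rose while Hmox2 had no stable direction.

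Of 8 tested genes for heme and globin uptake and transport, 4 rose and 4 fell. Slc48a1, which carries heme out of phagolysosomes, had 257.0, 250.2 and 249.3 normalized counts in control and 2826, 2236 and 3068 in DKK1 libraries, 10.7-fold higher. Lrp1, a receptor for heme bound to hemopexin, rose 20.7-fold and the heme exporter Flvcr1 rose 2.46-fold. Haptoglobin (Hp), which binds free hemoglobin, was 55.9-fold lower. Its receptor Cd163 went from 33 reads to 0, at least 12.8-fold lower against a floor of 3 reads over the group.

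Of 13 heme synthesis genes 5 rose and 2 fell, and 6 did not pass; with equal totals 9 rose and 1 fell. Alas1, the first enzyme of the pathway in most tissues, rose 2.03-fold and Clpx, which unfolds it, 1.82-fold, whereas Ppox was 6.05-fold lower and Urod 1.82-fold lower. With equal totals the call of Urod was lost (-0.32). The erythroid form Alas2 did not pass the test, with 16.8 ± 3.92 normalized counts in control and 8.07 ± 12.1 with DKK1 (SD, n = 3).

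Among 9 regulators 7 rose and 2 fell. Fbxl5, the ubiquitin ligase subunit that removes Ireb2 when iron is plentiful, had 17383, 16777 and 17191 normalized counts in control and 1232, 1250.03 and 1309 in DKK1 libraries. It was 13.5-fold lower (log2 change -3.76, limma adjusted p = 6.12e-11), while its target Ireb2 moved by -0.15 on the log2 scale. Aco1, iron regulatory protein 1, was 2.96-fold higher from a low level (26.3 ± 6.89 to 78.0 ± 27.3).

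Bach1, which represses Hmox1 and ferritin genes in the absence of heme, was 1.73-fold lower, although its change of -0.18 under quantile scaling did not pass. Nfe2l2 (NRF2), an activator of the same genes, rose 1.29-fold, and its partner Mafg rose as well (log2 change 0.93). Keap1, another gene of the regulator group, rose more than Nfe2l2, by 2.17-fold (limma adjusted p = 0.00174). Whether the activity of NRF2 or Bach1 changed was not tested. Spic, a transcription factor of red pulp macrophages, went from 5.63 ± 2.03 to 128 ± 9.80 normalized counts, 22.7-fold higher. Spic is also 1 of the 16 macrophage markers, of which 15 were tested, 5 being higher and 7 lower. Their part was not tested.

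Of 22 genes for mitochondrial iron and iron-sulfur clusters, 14 rose and 3 fell (17 and 2 with equal totals). Hspa9, a chaperone of cluster transfer, rose 53.4-fold. It had 80.2, 87.1 and 72.9 normalized counts in control and 3358, 5948 and 3509 in DKK1 libraries, library 2 being the highest. The mitochondrial iron importer Slc25a37 rose 2.17-fold, whereas Slc25a28, a related carrier of the same group, was 4.99-fold lower. The cluster protein Cisd2 rose 3.09-fold. The scaffold Iscu was 2.71-fold lower.

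**Figure D5:**
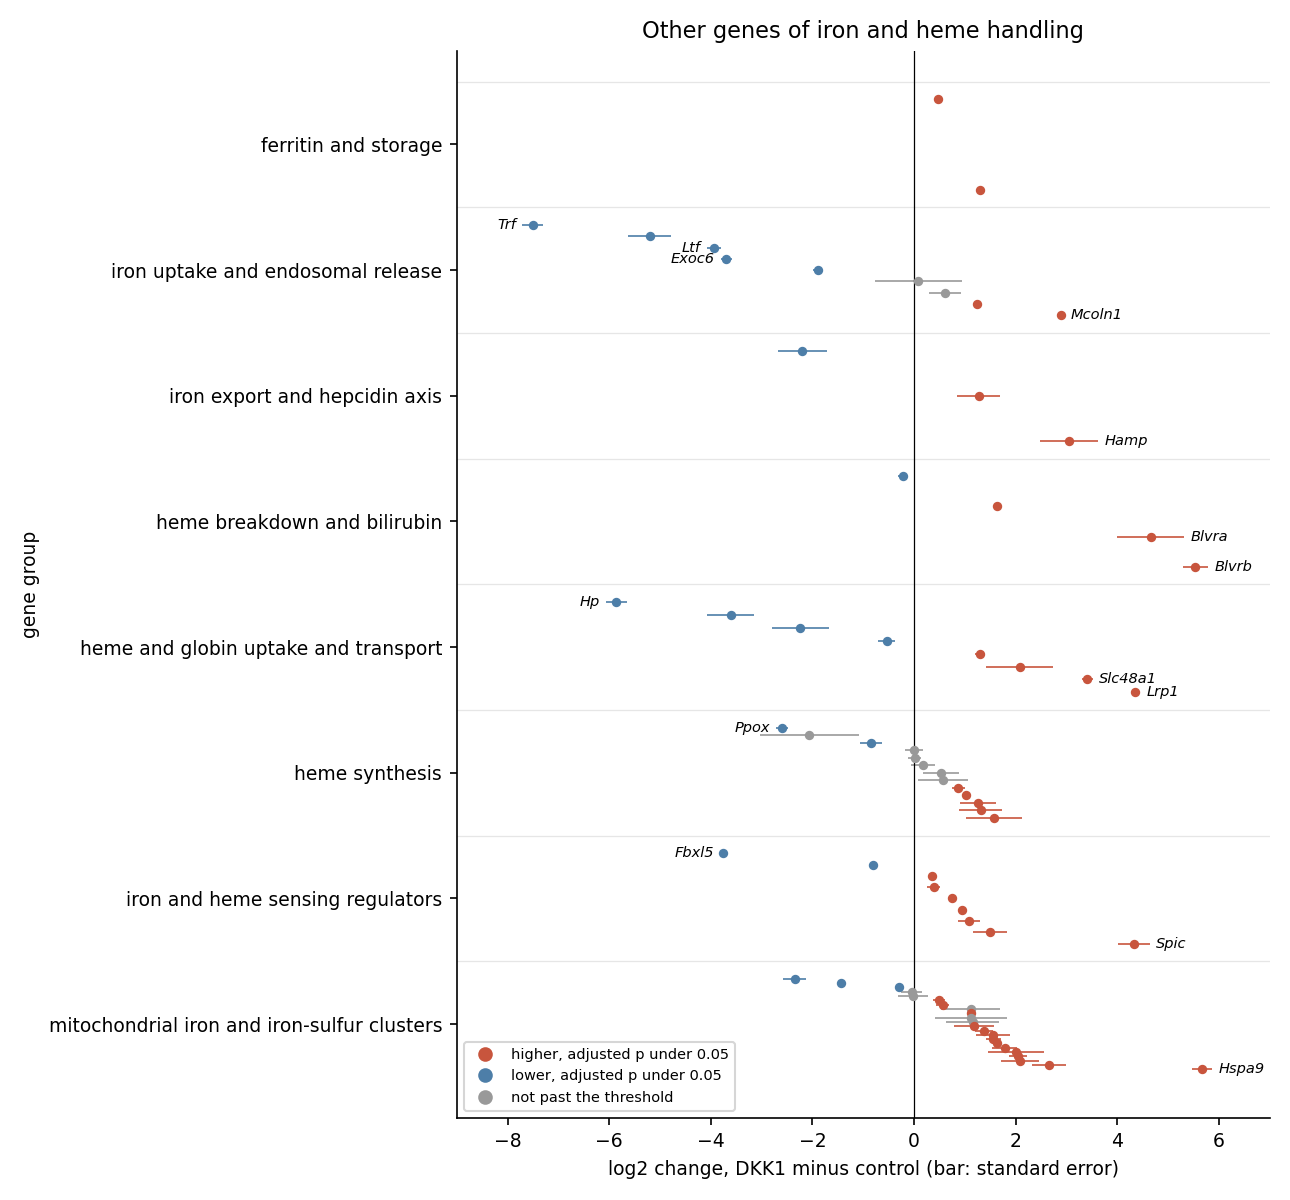
Log2 change (DKK1 minus control, bars standard error) of the 70 tested genes of the wider list in 8 groups, coloured by call. Blvra and Blvrb lie high among heme breakdown genes, and Trf and Hp lie lowest in their groups.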

How the data were processed

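Bulk RNA sequencing covered 6 libraries, 3 per group, and groups were taken from sample titles. Per gene and library the authors deposited a normalized count, a signal that is never negative, per the file headers. Reads were assigned to mm10, per the submitters' processing notes. Not given in the sources used here are the aligner, counter, annotation, strandedness and scaling factors. A further 3 value columns match no sample and were not used, and the factors may have been set with them. All values (100%) were whole multiples of 1 read within 0.001 reads, so reads were recovered.

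Genes were tested with limma 3.58.1 under R 4.3.3 (two-sided, pseudocount 1, with trend and robust fitting). Log2 changes on this scale understate those of low genes. Folds are ratios of mean normalized counts, except that with 1 to 3 reads in a group they are ratios of pooled reads and, against 0 reads, bounds at the floor. Floors of 3 reads and 95% counting intervals cover counting error alone. Count tests on recovered reads (edgeR 4.0.16 and DESeq2 1.42.0), pseudocounts, filters, scalings, the replicate block and leaving out each library were alternatives. The test was first run on simulated data, in which few genes changed and both groups started from control means. These data differ in both respects, so that run checks the code and not the error rate here.

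Genes were matched to GENCODE M21 by identifier without version (51948, 91.3%). Named genes were the 10 genes, up to 4 of smallest adjusted p from each wider group, and 9 fixed ones (Bach1, Nfe2l2, Aco1, Fbxl5, Spic, Hmox2, Blvrb, Lcn2 and Ltf). Gm10252, Gm5475, Ftl1-ps2, Cd68, Cd163, Alas2, Keap1, Slc25a28, Adgre1, Csf1r, Ly6c2, Cd14, Siglecf, Kit and Prg2 were named after their values were seen. The members and lists were chosen with earlier results of these data known.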

Additional observations from a re-analysis of the deposited data

How the results depend on the processing

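The counts of 6 genes higher and 1 lower rest on the deposited scaling. With median-of-ratios scaling, TMM scaling and edgeR, 2 of the 10 genes were lower, since Ireb2 then passed at -0.21, -0.20 and -0.18. The sign of Ireb2 reversed with equal totals (0.38) and quantile scaling (0.31). Ncoa4 passed as higher with equal totals (0.69) and quantile scaling (0.75), and leaving out 1 library at a time gave 0.081 to 0.22. Hmox2 reversed with equal totals (0.31) and quantile scaling (0.14). Steap3 has no value with the filter of 10 or with edgeR, which removed it. Of the wider list edgeR fitted 60 genes and called 36 higher and 15 lower. The cause of these changes was not tested.

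Same-numbered libraries did not deviate together (correlations -0.005, 0.007 and 0.017). All genes tested counted alike there, also those with few reads, so the correlations cannot tell whether such libraries share an animal or culture. With a replicate block 6 of the 10 genes were higher and 1 lower, 39 and 18 of the wider list, and 5630 and 5817 of all genes tested, against 5709 and 5873 without the block. Hmox2 then missed the threshold (limma adjusted p = 0.0511). Depth limits Steap3, Hamp and Hfe, which rest on few reads.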
